A study of Homo sapiens with 12 samples.

Results

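The aryl hydrocarbon receptor (AHR), its dimer partner ARNT, its repressor AHRR and 4 of its best known target genes, CYP1A1, CYP1B1, TIPARP and ALDH3A1, were followed in HaCaT keratinocytes grown with or without repeated blue light. These 7 genes were taken by symbol from the 45372 rows of the deposited count table, and all 7 had counts. AHRR and CYP1A1 were too low to judge, since each had fewer than 10 counts in 7 or more of the 12 libraries. The other 5 were tested. HaCaT is a spontaneously immortalized line of human skin keratinocytes, so all libraries come from 1 wild-type cell line. Irradiated cells lay in phosphate-buffered saline under a 408 nm LED at 4.6 mW per cm2 and received 50 J per cm2 per session, a dose set to kill 50% of them, with 3 sessions a week. The groups were dark_3, dark_14 and dark_42, kept without light and matched to 3, 14 or 42 sessions, and blue_3, blue_14 and blue_42, which received them. Each group had 2 libraries, a and b, and no label calls them separate cultures. The p-values therefore gauge only how far libraries a and b differ, which may be technical.

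AHR is a transcription factor that rests in the cytosol bound to chaperones. When a ligand binds, such as a dioxin, a plant compound or a tryptophan derivative formed under light, it enters the nucleus, pairs with ARNT and binds DNA at sites with the core GCGTG. Its targets include cytochrome P450 enzymes that oxidize foreign compounds, and the feedback inhibitors AHRR and TIPARP. In skin the receptor is known for responses to pollutants and ultraviolet light and for a part in keratinocyte differentiation.

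Library totals ran from 2073160 counts in blue_14 b to 8183941 in blue_42 b, and outside the 14-session groups none was under 6220751. Libraries a and b of a group differed beyond counting noise throughout. Of the keratinocyte markers, 10 of 10 were expressed, with a summed level of 4400 to 7200 CPM (counts relative to a common library total, after scaling). Melanocyte markers summed to at most 1.91 CPM, with MLANA, TYR and TYRP1 at 0 in every library. The 7 fibroblast markers summed to 4.28 to 14.8 CPM, and the highest sums were in dark_14. The 8 neuronal markers summed to 17.8 to 91.6 CPM. They were at 25.8 and 30.1 CPM in dark_3 but at 91.6 and 80.2 CPM in dark_14. With light they were at 56.3 and 75 CPM in blue_3, and at 46 and 40.6 CPM in blue_14, so the direction differed between these series.

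Copies of the receptor's core, GCGTG, were looked for in the 250 bases before each annotated start, on both strands, in RefSeq promoter sequences (GRCh38.p14). Sequence farther upstream was not searched. Windows were at hand for 5 of the 7 genes, with none for CYP1B1 or ALDH3A1. The core was found before both starts of AHRR, before the first of 3 starts of TIPARP and before the start of CYP1A1. No copy lay before the other TIPARP starts or in the AHR or ARNT window. Of 35116 promoter windows of the same length, 32.2% held at least 1 core, so a match is a description only. The longer form TNGCGTG, which contains the core, was in 4.52% of windows, and among the windows of these genes it was met once, in AHRR. Below, each site is written 5′ to 3′ on the strand that carries the core, with the core in capitals.
AHRR, chr5:321672-321700, plus strand, 30 bases before the first start: ggcgggcggctcGCGTGccggggtggggc
AHRR, chr5:322360-322379, plus strand, 247 bases before the second start: ggcGCGTGacaggcaggggc
AHRR, chr5:322556-322584, plus strand, 42 bases before the second start: gcagaagggtggGCGTGtgcgcgcgttct
TIPARP, chr3:156674370-156674398, minus strand, 208 bases before the first start: tcccgcgaggggGCGTGtcctttctcgcg
TIPARP, chr3:156674436-156674464, minus strand, 142 bases before the first start: ccccctgcgcgcGCGTGcgcgttcgttcg
CYP1A1, chr15:74725569-74725597, minus strand, 57 bases before the start: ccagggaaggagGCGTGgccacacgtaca

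Blue light moved none of the 5 testable genes past an adjusted p of 0.05 in any of the 3 series. The nearest was CYP1B1, which was higher in both irradiated libraries than in both dark libraries in each series. Its largest difference was after 42 irradiations, at 1.33-fold. Among the dark cultures, by contrast, CYP1B1 and ALDH3A1 fell between the 3- and the 42-session controls. The library method reads about 1 tag per transcript, next to its 3′ end, so levels of different genes can be compared without scaling for length. In order of mean level, CYP1B1 stood at 130 CPM, AHR at 76.0, TIPARP at 44.6, ALDH3A1 at 20.4 and ARNT at 16.5, against 0.962 for CYP1A1 and 0.924 for AHRR. CYP1B1 lay at the 88.6th percentile of the 12878 tested genes and ARNT at the 42.8th.

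**Figure D1:**
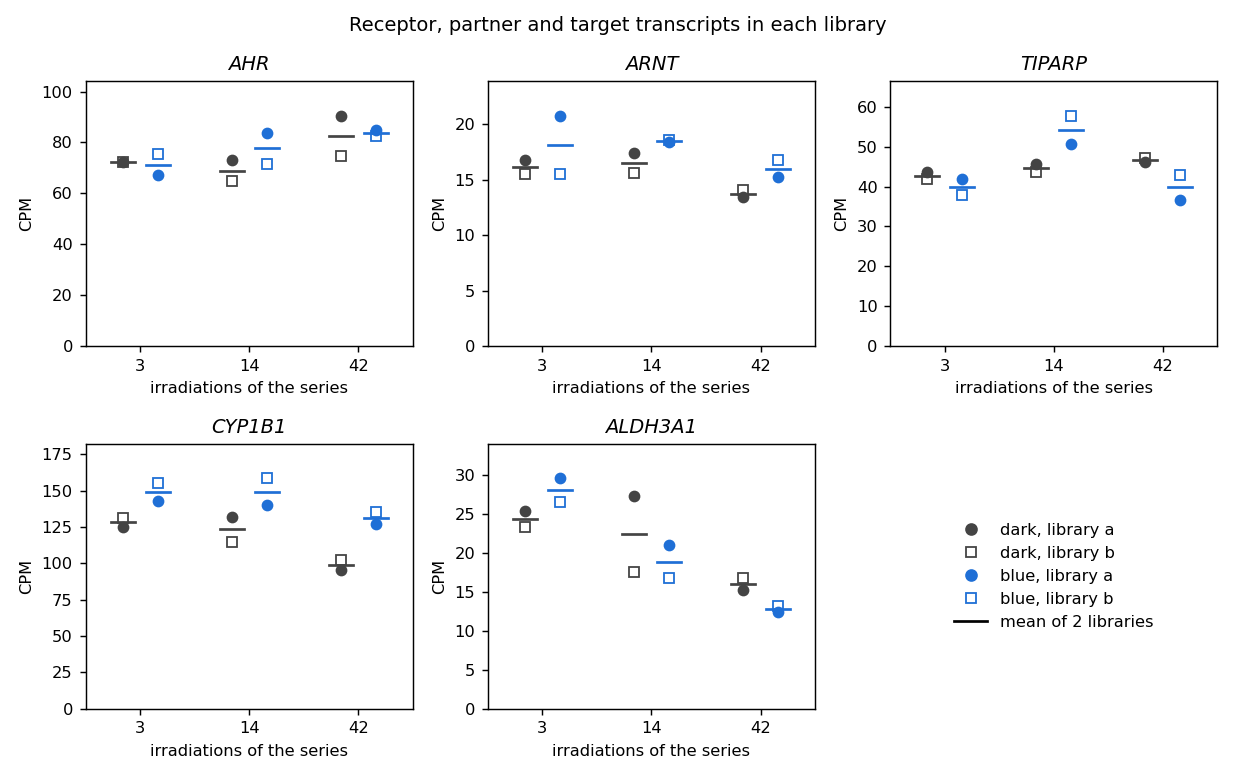
Level of AHR, ARNT, TIPARP, CYP1B1 and ALDH3A1 in each of the 12 libraries, in CPM on linear axes from 0, against the irradiation number of the series. Grey marks are dark and blue marks irradiated libraries, and bars are the mean of 2 libraries; CYP1B1 was higher in the irradiated libraries of each series, and the group means of ALDH3A1 were lowest in the 42-session series.

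AHR itself (chr7:16916359-17346152, plus strand, GENCODE 29 on GRCh38) was well measured, with 150 to 707 counts per library. In dark_3 it was at 72.1 and 72.2 CPM, and in blue_3 at 67.0 and 75.3 CPM. In dark_14 it was at 73.0 and 64.8 CPM, and in blue_14 at 83.9 and 71.6 CPM. In dark_42 it was at 90.5 and 74.5 CPM, and in blue_42 at 85.1 and 82.4 CPM. The irradiated and dark libraries overlapped in every series. The log2 light effect on AHR was -0.02 ± 0.13 (SE) after 3, 0.19 ± 0.14 after 14 and 0.02 ± 0.12 after 42 irradiations, with edgeR adjusted p of 0.981, 0.884 and 0.966. Averaged over the series it was 0.06, with a 95% interval of -0.09 to 0.22. In order of level, the groups ran from dark_14 (68.9 ± 5.84 CPM, SD, n = 2) through blue_3, dark_3, blue_14 and dark_42 to blue_42 (83.8 ± 1.88), and each overlapped with its neighbour. AC019117.2, annotated as protein-coding on the same strand, overlaps the 3′ end of AHR and was not among the counted genes. How reads at this end were assigned was not tested.

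ARNT (chr1:150809705-150876768, minus strand), the partner without which AHR does not bind DNA, was lower and rested on 39 to 157 counts. It was at 16.8 and 15.6 CPM in dark_3 against 20.8 and 15.5 in blue_3. After 14 irradiations it was at 17.5 and 15.6 CPM in the dark against 18.4 and 18.6 with light. After 42 it was at 13.4 and 14.1 CPM in the dark against 15.2 and 16.8 with light. The groups overlapped in the 3-session series, while in the others both irradiated libraries were above both dark ones. The log2 light effect was 0.18 ± 0.17, 0.18 ± 0.20 and 0.22 ± 0.17 in the 3 series and 0.19 ± 0.10 on average, and edgeR's adjusted p for the average was 0.665. The interval of that average ran from -0.03 to 0.41, so a rise of this size can be neither called nor set aside with these libraries. Dark_42 was lowest (13.8 ± 0.423 CPM, SD, n = 2) and did not overlap with blue_42, the next group, while the groups above it, dark_3, dark_14, blue_3 and blue_14, each overlapped with their neighbours.

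AHRR (chr5:304176-438291, plus strand) competes with AHR for ARNT and is itself induced by the receptor. It had 59 counts in all 12 libraries together, with a median of 4.5 per library and 11 libraries under 10. The counts were 1 and 3 in dark_3, 3 and 6 in blue_3, 1 and 6 in dark_14, 4 and 7 in blue_14, 8 and 11 in dark_42, then 5 and 4 in blue_42. Neither light nor series separated these counts throughout. As a ratio of summed counts per scaled total, blue over dark was 2.17 (exact 95% interval 0.606 to 9.65) after 3 irradiations and 3.19 (1.13 to 9.71) after 14. It was 0.459 (0.183 to 1.07) after 42. These intervals cover counting error only and leave out the spread between cultures, and over all irradiated against all dark libraries the ratio was 1.1 (0.636 to 1.89), from 29 and 30 counts. PDCD6, a gene on the same strand that overlaps AHRR away from its 3′ end, had 156 to 621 counts per library, and how reads were divided between them was not tested.

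CYP1A1 (chr15:74719542-74725610, minus strand), the cytochrome P450 most used as a readout of receptor activity, was as scarce. It had 69 counts in all, a median of 5 and 10 libraries under 10. The counts were 11 and 7 in dark_3, 14 and 2 in blue_3, 2 and 5 in dark_14, 5 and 3 in blue_14, 3 and 5 in dark_42, then 6 and 6 in blue_42. The highest and one of the lowest counts came from the same group, blue_3. Blue over dark was 0.858 (exact 95% interval 0.409 to 1.78) after 3, 2.32 (0.735 to 7.52) after 14 and 1.45 (0.547 to 4.1) after 42 irradiations, on counting error alone. Over all libraries it was 1.24 (0.751 to 2.05), from 36 and 33 counts. The upper bound of the summed level was under 3 CPM in each group, the highest being 2.83 CPM in blue_14. Whether light changed CYP1A1 was not detectable at this depth.

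**Figure D2:**
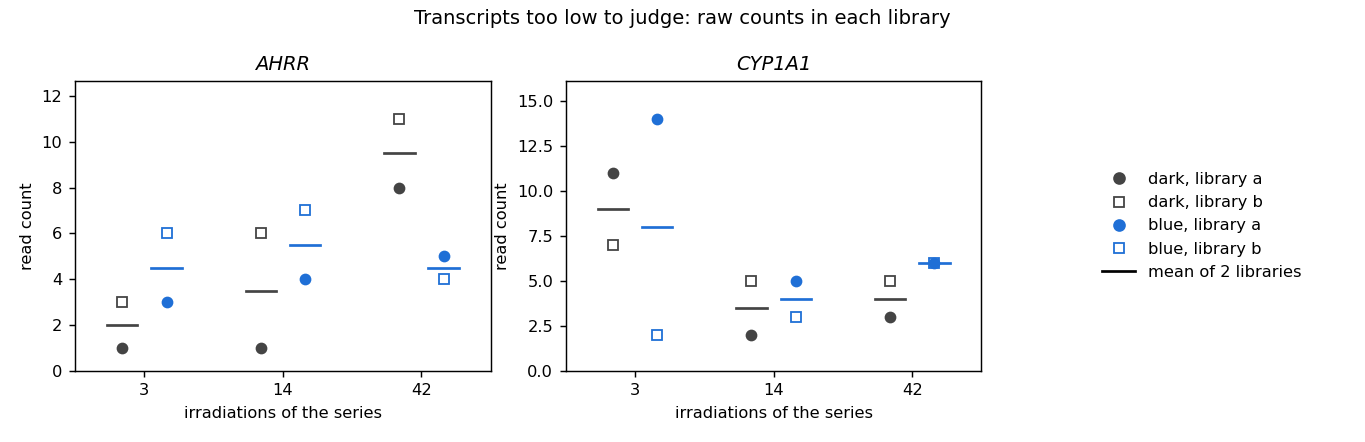
Raw read counts of AHRR and CYP1A1 in each library, on linear axes from 0, against the irradiation number, with grey for dark, blue for irradiated libraries and bars for the mean of 2. No count of AHRR exceeded 11 and none of CYP1A1 exceeded 14, and for CYP1A1 the marks of blue_42 a and b coincide at 6.

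CYP1B1 (chr2:38066973-38109902, minus strand), a P450 that oxidizes polycyclic hydrocarbons and estrogens, was the most abundant of the 7, with 332 to 1116 counts per library. In dark_3 it was at 125.3 and 131.4 CPM, and in blue_3 at 143.2 and 155.1. In dark_14 it was at 132.0 and 115.0 CPM, and in blue_14 at 139.9 and 158.5. In dark_42 it was at 95.3 and 102.5 CPM, and in blue_42 at 126.8 and 135.5. The irradiated libraries lay above the dark libraries of their own series in all 3, without overlap. The log2 light effect was 0.22 ± 0.11 (edgeR adjusted p = 0.733) after 3, 0.27 ± 0.12 (0.818) after 14 and 0.41 ± 0.11 (0.0818) after 42 irradiations. Averaged over the series it was 0.30 ± 0.07, a 1.23-fold difference with an interval of 0.16 to 0.44, at an unadjusted p of 0.000188 and an edgeR adjusted p of 0.101. By p, CYP1B1 ranked 24th of 12878 genes for that average. The 3 light effects on CYP1B1 did not differ from each other by the test, the change from 3 to 42 irradiations being 0.19 ± 0.16 (edgeR adjusted p = 0.714).

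The side of the threshold on which CYP1B1 fell depended on the setting. The average light effect was called with no filter on low counts (adjusted p = 0.0229) and by DESeq2 (0.0444), and the effect after 42 irradiations was called when the 14-session libraries were left out (0.0486). Summed keratinocyte markers were likewise higher with light after 42 irradiations, at 5980 and 5660 CPM against 4950 and 4400, and after 14, at 7200 and 6530 against 5960 and 6110, while after 3 they overlapped, at 7020 and 6240 against 6410 and 6590. For the average light effect 10 of 10 keratinocyte markers were above 0, with none called. After 42 irradiations the keratinocyte marker SFN rose (0.58 ± 0.12 on the log2 scale, edgeR adjusted p = 0.017). Their part in the CYP1B1 differences was not tested, and in bulk RNA fewer cells of a type and less RNA per cell cannot be told apart. In the RMDN2 gene, which overlaps the 3′ end of CYP1B1 on the other strand, there were 2 to 20 counts per library, and in CYP1B1-AS1 1 to 8. No source used here gives the strand setting of the counting.

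TIPARP (chr3:156673235-156706770, plus strand), an ADP-ribosyltransferase that is induced by AHR and then promotes its loss, had 121 to 363 counts. It was at 43.6 and 41.9 CPM in dark_3 against 41.9 and 37.9 in blue_3. After 14 irradiations it was at 45.5 and 43.7 CPM in the dark against 50.6 and 57.8 with light. After 42 it was at 46.1 and 47.2 CPM in the dark against 36.5 and 43.0 with light. The irradiated libraries were lower in the 3-session series, with the nearest values at 41.86 and 41.91 CPM, higher in the 14-session series and lower in the 42-session series. The log2 light effect was -0.10 ± 0.13, 0.27 ± 0.14 and -0.23 ± 0.12, with edgeR adjusted p of 0.899, 0.837 and 0.441. The change from 14 to 42 irradiations was -0.50 ± 0.18, at an unadjusted p of 0.0129 and an edgeR adjusted p of 0.461. Averaged over the series the light effect on TIPARP was -0.02 ± 0.07 (edgeR adjusted p = 0.969). TIPARP was highest in blue_14 (54.2 ± 5.1 CPM, SD, n = 2). Without blue_14 b, the library of lowest total, the 14-session light effect was 0.19. From low to high the groups ran blue_42, blue_3, dark_3, dark_14, dark_42 and blue_14, and only blue_42 and blue_3 overlapped among neighbours.

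ALDH3A1 (chr17:19737984-19748943, minus strand), an aldehyde dehydrogenase that clears products of lipid peroxidation and is abundant in the cornea, had 35 to 223 counts. It was at 25.4 and 23.3 CPM in dark_3 against 29.5 and 26.5 in blue_3. After 14 irradiations it was at 27.2 and 17.5 CPM in the dark against 21.0 and 16.7 with light. After 42 it was at 15.2 and 16.8 CPM in the dark against 12.4 and 13.1 with light. Irradiated libraries were thus above the dark ones in the 3-session series and below them in the 42-session series, with overlap between. The log2 light effect was 0.21 ± 0.17, -0.15 ± 0.21 and -0.33 ± 0.19, with edgeR adjusted p of 0.844, 0.949 and 0.483. The change from 3 to 42 irradiations was -0.53 ± 0.25, at an unadjusted p of 0.046 and an edgeR adjusted p of 0.434. The 14-session value rested on the spread of the dark pair, and its direction changed without dark_14 a (0.133).

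**Figure D3:**
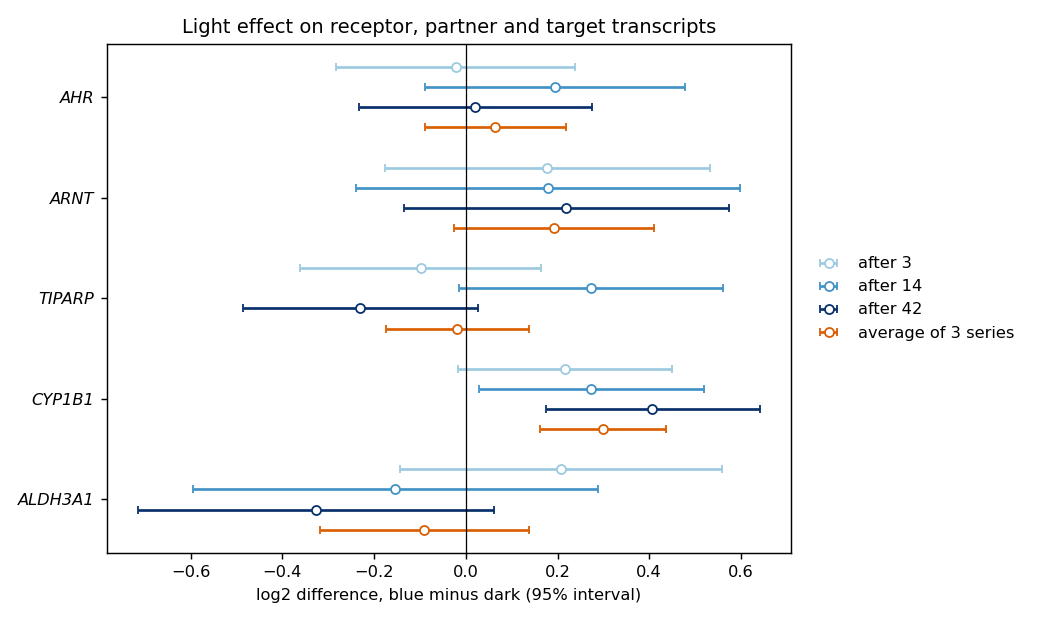
Light effect on the 5 testable genes as a log2 difference, irradiated minus dark, after 3, 14 and 42 irradiations and averaged over the series, with 95% intervals from the edgeR fit; open circles did not pass an adjusted p of 0.05. All circles are open, and of the averages only the CYP1B1 interval lies clear of 0.

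Set against the whole table, 0 of the 5 testable genes were called after 3 irradiations, when 0.0155% of 12878 genes were (2 genes by edgeR, the neuronal markers SYT1 and CELF4, and 1 by DESeq2). After 14 irradiations none was called among the 5, nor in the table (0%), where 758 genes reached 0.05 before adjustment and DESeq2 called 2. After 42 irradiations 1.23% of genes were called and for the average 0.0699%, again with 0 of the 5 by edgeR. At an unadjusted p under 0.05, CYP1B1 alone among the 5 passed after 14 (5.89% of all genes), after 42 (13.3%) and on average (8.29%), and none passed after 3 (6.92%). For changes in the light effect, 0 of the 5 were called between 3 and 14 irradiations (0.0388% of all genes, or 5, of which SYT1, MAP2, NEFM and CELF4 are neuronal markers), between 3 and 42 (0.435%) and between 14 and 42 (0.0544%), and DESeq2 called none either. Before adjustment 0 genes, ALDH3A1 and TIPARP passed 0.05 in turn, against 8.0%, 11.3% and 8.04% of all genes.

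Separation of 2 irradiated from 2 dark libraries was common in the table and says little by itself. After 3 irradiations 3 of the 7 genes did not overlap, against 43.6% of all genes. After 14 it was 5 of 7, against 33.2%, and after 42 it was 6 of 7, against 42.2%. These counts include the low genes AHRR and CYP1A1. Lying higher with light in all 3 series is a stricter condition, met by 0.745% of genes, or 96, while 71 genes lay lower in all 3. CYP1B1 was the 1 member among the 96. How many genes would meet it from the spread of libraries alone was not tested. The members were also chosen with earlier results known, so this place carries no test.

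The dark cultures show how these transcripts differed between the series without light. Between the 3- and 42-session controls CYP1B1 went from 128.3 ± 4.32 to 98.9 ± 5.09 CPM (SD, n = 2), and fell by 0.38 ± 0.11 on the log2 scale (edgeR adjusted p = 0.0252). ALDH3A1 went from 24.4 ± 1.44 to 16.0 ± 1.09 CPM, and fell by 0.60 ± 0.18 (edgeR adjusted p = 0.0223). For both genes each dark_42 library lay below each dark_3 library. So 2 of the 5 testable genes were called in this comparison, in which 17.7% of all genes were. AHR differed by 0.19 ± 0.12, ARNT by -0.23 ± 0.17 and TIPARP by 0.13 ± 0.12, with edgeR adjusted p of 0.297, 0.378 and 0.517.

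Both calls were lost without any 1 of the 4 dark libraries compared, when the differences ran from -0.43 to -0.33 for CYP1B1 and from -0.68 to -0.54 for ALDH3A1, with edgeR adjusted p of up to 0.181 and 0.164. With library totals as the only scaling, the CYP1B1 difference was -0.30 (adjusted p = 0.0787), and by DESeq2 the ALDH3A1 difference had an adjusted p of 0.06. Summed keratinocyte markers were also lower in the late controls, at 4950 and 4400 CPM against 6410 and 6590 in dark_3. Of the 10 markers KRT5, KRT14 and SFN were called lower and none higher. The fall was not shared by all, as 3 of the 10 were above 0, among them TP63 at 0.32 and ITGB4 at 0.24. The part of these markers in the fall of CYP1B1 and ALDH3A1 was not tested. Time in culture, passage and any batch of the series cannot be told apart among the dark controls.

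With all libraries, the larger fitted step for both genes lay between the 14- and 42-session controls, a difference between steps that was not tested. There CYP1B1 differed by -0.31 ± 0.11 (edgeR adjusted p = 0.104), ALDH3A1 by -0.42 ± 0.19 (0.191) and AHR by 0.27 ± 0.13 (0.217). None of the 5 was called, against 7.04% of all genes, while these 3 had an unadjusted p under 0.05, as 21.8% of all genes did. Without dark_14 b the ALDH3A1 difference here was -0.76, and without dark_14 a it was -0.12. In the fit without dark_14 a the ALDH3A1 step from 3 to 14 sessions was the larger, at -0.50. Between 3 and 14 sessions 12.7% of all genes were called but 0 of the 5 were, with none past 0.05 before adjustment and none called by DESeq2. Their log2 differences there ran from -0.19 for ALDH3A1 to 0.06 for TIPARP.

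**Figure D4:**
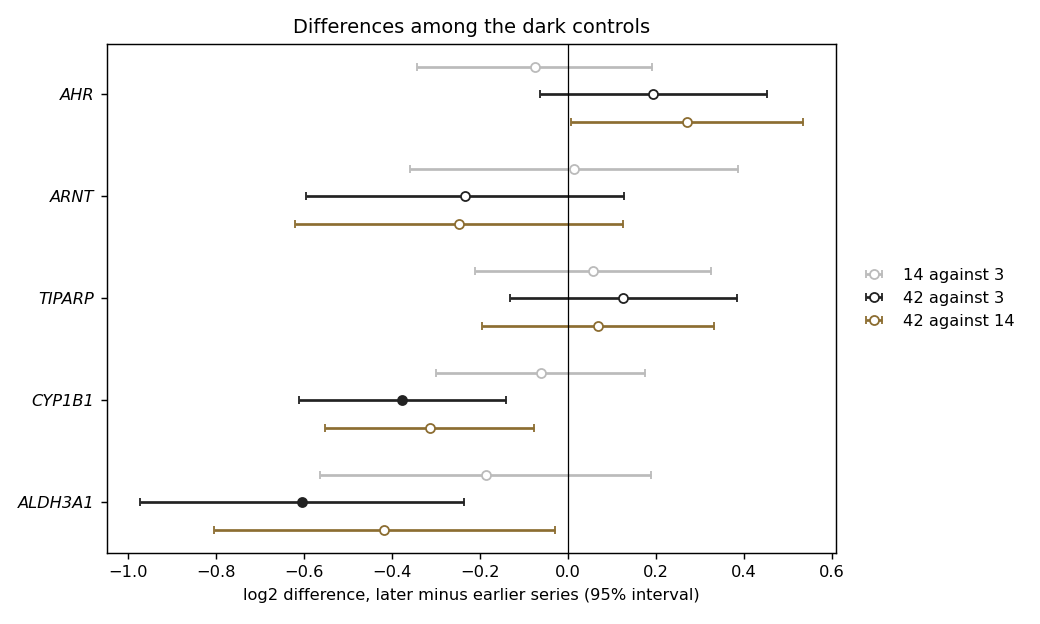
Differences among the dark controls for the 5 testable genes as log2 values, later minus earlier series, with 95% intervals from the edgeR fit; filled circles passed an adjusted p of 0.05. The filled circles are CYP1B1 at -0.38 and ALDH3A1 at -0.60 for 42 against 3 sessions.

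The order of the groups joins these comparisons, which share the dark_42 libraries. For CYP1B1 dark_42 was lowest, followed by dark_14 (123.5 ± 12.1 CPM), dark_3, blue_42 (131.1 ± 6.14), blue_3 (149.1 ± 8.42) and blue_14 (149.2 ± 13.2). Dark_42 did not overlap with dark_14, nor blue_42 with blue_3, while the other neighbours overlapped. Thus the 42-session light effect on CYP1B1 was measured against the lowest controls, and blue_42 and dark_3 overlapped. For ALDH3A1 blue_42 was lowest (12.8 ± 0.506 CPM), followed by dark_42, blue_14 (18.8 ± 3.01), dark_14 (22.4 ± 6.86), dark_3 and blue_3 (28.0 ± 2.11). Only the lowest pair and the highest pair of neighbours were free of overlap.

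For the low genes, AHRR had 4 counts in dark_3 and 19 in dark_42, a ratio of 4.06 (exact 95% interval 1.35 to 16.4), and CYP1A1 had 18 and 8, a ratio of 0.38 (0.143 to 0.918). Those intervals, too, leave out the spread between libraries. Within dark_3 CYP1A1 itself varied from 11 to 7 counts, and AHRR from 1 to 3.

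The genes whose levels ran most like each member over the 12 libraries were named by Pearson r of log2 CPM, among 8689 genes with a mean of at least 10 CPM. These correlations describe shared libraries and group means and carry no test. For AHR they were MOGS (r = 0.866), NAA25 (0.838) and OSBPL8 (0.833). For ARNT they were SDC1 (0.914), RABL2B (0.907) and RNF141 (0.899). TIPARP ran with RIMOC1 (0.918), the immediate early factor KLF6 (0.908) and the RNA LINC00511 (0.899). CYP1B1 ran with DCAF11 (0.939), SLC12A9 (0.922) and TEAD2 (0.917), and ALDH3A1 with COPZ2 (0.92), MISP (0.912) and the epidermal protease KLK5 (0.911). No member was among the 3 nearest of another.

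The rest of the pathway was described by 7 lists of 49 genes, of which 40 were tested. None was called after 3 or 14 irradiations or on average by edgeR or DESeq2, while 5, 2 and 4 of the 40 had an unadjusted p under 0.05, against 6.92%, 5.89% and 8.29% of all genes. After 42 irradiations 1 of the 40 was called, against 1.23% of all genes. That gene was PTGES3, the p23 cochaperone of the resting receptor complex. It went from 183 CPM in dark_42 to 265 in blue_42 and rose by 0.54 ± 0.13 on the log2 scale (edgeR adjusted p = 0.0452). The call was lost without dark_3 a, dark_3 b, dark_42 b, blue_42 a or blue_42 b, and under non-robust estimation, with library totals as the only scaling, and in a fit on the compared groups alone. PTGES3 was at 339 CPM in dark_3. The median light effect of the 40 genes after 42 irradiations was -0.04, against 0.00 for all tested genes at 2 decimals. HSP90AA1 and HSP90AB1, the chaperones themselves, were far more abundant, at 3220 and 2500 CPM on average, and were not called for light in any series.

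Among the detoxification genes described as receptor targets, 0 of 6 tested were called for light in any series. NQO1, a quinone reductase, differed after 42 irradiations by 0.31 ± 0.18, SLC7A5, an amino acid transporter, by 0.66 ± 0.45, and the oxidative stress factor NFE2L2 by 0.08 ± 0.12, with edgeR adjusted p of 0.492, 0.611 and 0.837. CYP1A2, GSTA1 and GSTA2 had 0 counts in every library. UGT1A1 and UGT1A6 share their 3′ exons, so their counts are uncertain. The median of the 6 after 42 irradiations was 0.20, with 5 of 6 above 0 and none past the test.

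Of 9 tested keratinocyte and signalling targets, 0 were called for light in any single series. For the change in light effect from 3 to 42 irradiations FLG and NEDD9 were called, where 0.435% of all genes were. From 14 to 42 irradiations VAV3 was called, where 0.0544% of all genes were. FLG, the barrier protein filaggrin, had a light effect of -0.84 ± 0.16 after 3 and 0.55 ± 0.16 after 42 irradiations, a change of 1.39 ± 0.22 (edgeR adjusted p = 0.0132). NEDD9, a focal adhesion scaffold, went the other way, with 1.04 ± 0.22 after 3 and -0.46 ± 0.22 after 42 irradiations, a change of -1.50 ± 0.31 (adjusted p = 0.0334). VAV3, a guanine nucleotide exchange factor, changed by -1.01 ± 0.19 from 14 to 42 irradiations (edgeR adjusted p = 0.0493). The FLG call was lost without dark_3 b, blue_42 a or blue_42 b, that of NEDD9 without 6 single libraries (dark_3 a and b, blue_3 b, dark_42 b, blue_42 a and b), and that of VAV3 without any 1 library other than blue_14 a and dark_42 a. Neuronal markers also differed in these contrasts. For light 8 of 8 were above 0 after 3 irradiations (median log2 difference 2.04), 0 of 8 after 14 (median -1.34) and 5 of 8 after 42 (median 0.26). For the change from 3 to 42, 8 of 8 were below 0 (median -1.97, SYT1 called at -2.61). For the change from 14 to 42, 8 of 8 were above 0, with none called. Their part in the FLG, NEDD9 and VAV3 changes was not tested. LORICRIN had 3 counts in all. No gene of the tested turnover, bHLH-PAS, coregulator or tryptophan lists was called for light or for its change by edgeR. For the change from 3 to 14 irradiations edgeR called 0 of the 40 pathway genes, DESeq2 called 2, and 10 passed 0.05 before adjustment, where 8.0% of all genes did so and DESeq2 called 15 in all. NPAS2, TDO2, KMO, KYNU and TPH1 had at most 38 counts each over the 12 libraries and stayed below the filter.

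**Figure D5:**
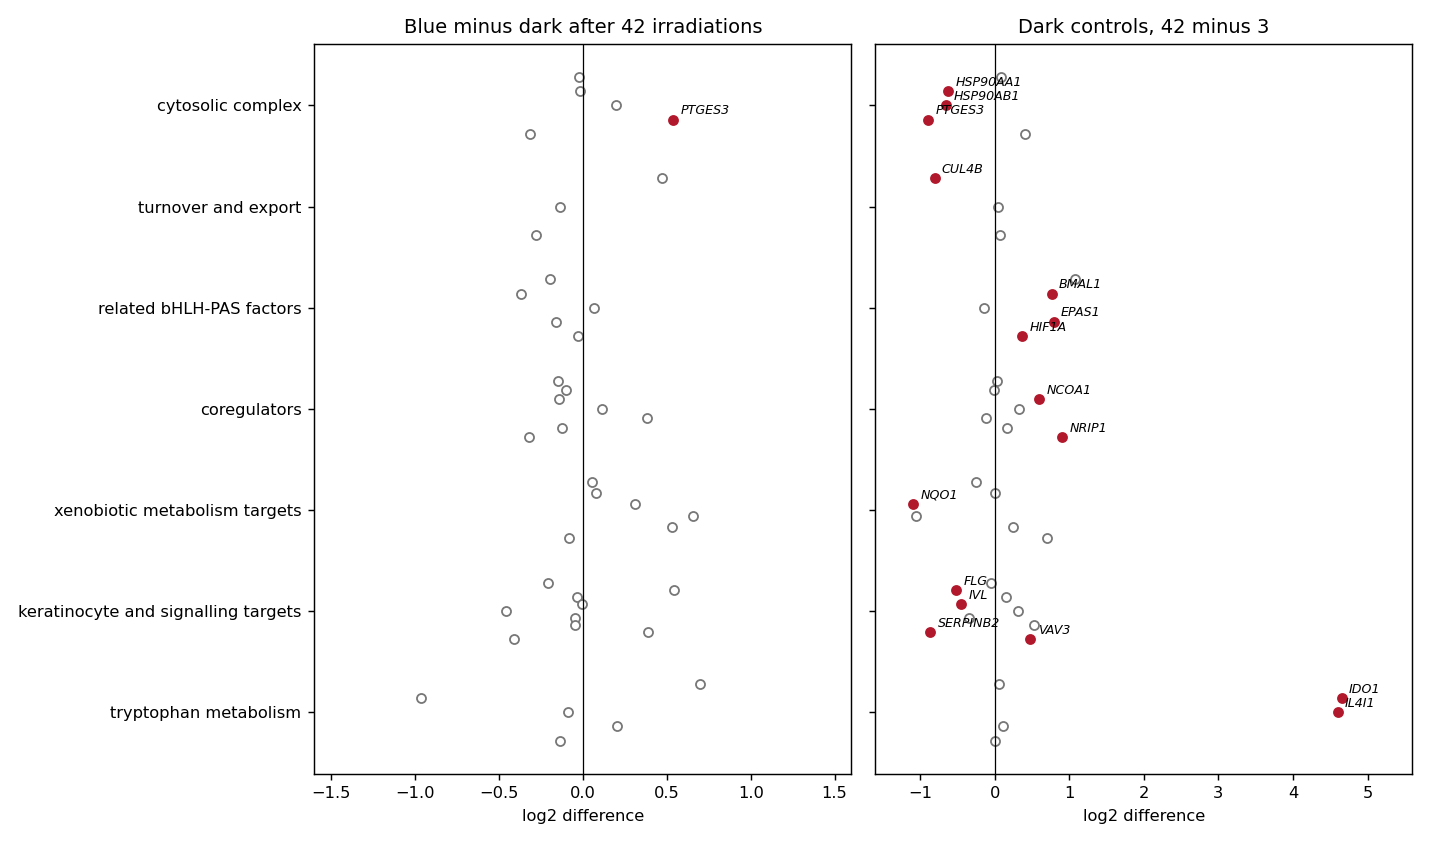
Log2 differences of the 40 tested pathway genes by list, irradiated minus dark after 42 irradiations on the left and dark_42 minus dark_3 on the right; each circle is 1 gene and red circles passed an edgeR adjusted p of 0.05. On the left only PTGES3 is red, and on the right 16 genes are, 8 on each side of 0. Of these, IDO1 and IL4I1 were too low to judge by the rule used for AHRR and CYP1A1.

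Among the dark cultures more genes of the same lists were called. Between 3 and 42 sessions 8 of the 40 genes rose and 8 fell, and between 3 and 14 sessions 7 rose and 6 fell. The 8 that rose by 42 sessions include IDO1 and IL4I1, which were too low to judge by the rule used for AHRR and CYP1A1. Between 14 and 42 sessions 2 rose, XPO1 and HIF1A, and 4 fell, PTGES3, CUL4B, NCOA3 and IVL. The shares of all genes given above for these comparisons, 17.7%, 12.7% and 7.04%, are the background of these counts. Of the 5 genes of the cytosolic complex 3 fell by 42 sessions, PTGES3 by 0.89 ± 0.13, HSP90AB1 by 0.65 ± 0.13 and HSP90AA1 by 0.62 ± 0.18. NQO1 fell by 1.09 ± 0.18 on the log2 scale (edgeR adjusted p = 0.00078), from 140 CPM in dark_3 to 65.6 in dark_42, and had already fallen by 0.96 ± 0.18 at 14 sessions. CUL4B, a scaffold of the ubiquitin ligase linked to AHR, fell by 0.80 ± 0.12. In the same comparison the keratinocyte markers KRT5, SFN and KRT14 differed by -0.96, -0.76 and -0.39, all called, while 3 of the 10 were above 0. Of 4 endothelial markers only 1 was tested, CDH5, which was called higher, at 2.38. It was scarce, at 0.461 CPM in dark_3 and 2.45 in dark_42. Summed endothelial markers were at 0.634 and 1.58 CPM in dark_3 against 2.69 and 3.12 in dark_42. The part of these markers in the list changes by 42 sessions was not tested.

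Of the bHLH-PAS relatives 3 of 5 rose by 42 sessions, EPAS1, the hypoxia factor HIF2 alpha, by 0.79 ± 0.14, BMAL1 by 0.77 ± 0.24 and HIF1A by 0.37 ± 0.12. EPAS1 and HIF1A pair with ARNT, and BMAL1 is a clock gene related to ARNT. Of the coregulators NRIP1 rose by 0.91 ± 0.16 and NCOA1 by 0.60 ± 0.18, while at 14 sessions NCOA2 and NCOA3 were higher along with NRIP1. Among keratinocyte targets SERPINB2 fell by 0.86 ± 0.18, FLG by 0.52 ± 0.16 and IVL by 0.45 ± 0.15, and VAV3 rose by 0.48 ± 0.13. At 14 sessions IVL (0.87 ± 0.15) and PTGS2 (0.91 ± 0.25) had instead been higher than in dark_3. Neuronal markers were higher in dark_14 than in dark_3, all 8 by the test, and lower in dark_42 than in dark_14, again all 8. Of the 7 fibroblast markers 3 were tested, COL1A1, DCN and THY1, and these were called higher in dark_14 than in dark_3. DCN, with 39 counts in all, was too low to judge by the rule used for AHRR and CYP1A1. COL1A2, COL3A1, LUM and PDGFRB stayed below the filter, with at most 8 counts each over the 12 libraries. The part of neuronal or fibroblast markers in the 14-session differences was not tested.

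In tryptophan metabolism, which yields natural AHR ligands, IDO1 and IL4I1 were called higher in dark_42 than in dark_3. IDO1 rested on 2 counts in dark_3 and 66 in dark_42, a ratio of 28.2 with an exact 95% interval of 7.51 to 238. IL4I1 rested on 3 and 92 counts, a ratio of 26.2 (8.7 to 129). Both intervals cover counting error only. In dark_42 the counts of a and b were 20 and 46 for IDO1 and 20 and 72 for IL4I1, so the libraries of that group differed beyond what their totals give. With light IDO1 had 6 and 29 counts in blue_42, and IL4I1 had 20 and 70.

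Few of these dark calls held without each of the 12 libraries in turn. Between 3 and 42 sessions PTGES3, HSP90AB1, CUL4B, EPAS1, NRIP1 and NQO1 did. HSP90AA1, BMAL1, FLG and VAV3 were lost without dark_3 a, dark_3 b or dark_42 b, when BMAL1 went as low as 0.45 and FLG to -0.27, both without dark_42 b. HIF1A was lost without those libraries and without dark_14 a or b or blue_42 a or b, and was at 0.23 without dark_42 b. NCOA1 was lost without dark_3 a or dark_42 b, IVL without dark_3 a, dark_3 b or dark_42 a, SERPINB2 without dark_3 a, IDO1 without dark_3 b or dark_42 b, and IL4I1 without dark_3 a or b. Between 3 and 14 sessions EPAS1, NQO1 and IVL held, and the other 10 were lost without dark_3 a or dark_14 a, in 9 of them without dark_3 b as well. Of those 10, BMAL1 was lost also without dark_14 b and NCOA2 also without blue_42 a or b. Between 14 and 42 sessions IVL held, at -1.32 ± 0.15. PTGES3 was lost there without dark_14 b or dark_42 b, XPO1 without dark_14 a or dark_42 a, CUL4B without dark_14 b, NCOA3 without dark_14 a, and HIF1A without dark_14 a, dark_14 b or dark_42 b. Some calls were also lost under other settings. DESeq2 did not call BMAL1, HIF1A, NCOA1 or VAV3 between 3 and 42 sessions (adjusted p = 0.107, 0.0857, 0.0963 and 0.055), nor BMAL1 and NCOA2 between 3 and 14 (0.106 and 0.109). A fit on the compared groups alone lost BMAL1 and NCOA1 between 3 and 42 sessions (edgeR adjusted p = 0.0562 and 0.053) and PTGES3, XPO1 and HIF1A between 14 and 42 (0.0655, 0.0812 and 0.0705). IVL between 3 and 42 sessions was lost with the filter at 5 CPM, the replicate block, non-robust estimation or library totals only.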

How the data were processed

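Total RNA of HaCaT cells was read in 12 QuantSeq 3' FWD libraries. The authors deposited 1 table of raw read counts, whole numbers with 1 column per library; STAR, featureCounts and GRCh38 are named in the submitters' processing notes, while no source used here gives versions, annotation release, strand setting or molecular identifiers. Groups came from the sample titles. Genes were filtered with filterByExpr (minimum count 10), which left 12878, scaled by TMM and fitted with edgeR 4.0.16 (R 4.3.3) in 1 robust quasi-likelihood model with a mean for each of 6 groups and 6 residual degrees of freedom. Two-sided p-values were adjusted over the 12878 genes by Benjamini-Hochberg and called at 0.05. The biological coefficient of variation was 9.41%. Standard errors derive from the test statistic, and errors beside CPM are SD of 2 libraries.

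The members and gene lists were chosen with earlier results of these data known. Named were all 7 members, the 3 nearest genes of each testable member, and in each list the called genes, otherwise up to 3 of the highest level, plus those below the filter. Counts of low genes carry exact 95% intervals. Positions came from GENCODE 29, which may differ from the authors' annotation. Alternatives were RLE scaling, DESeq2 1.42.0, no filter, a filter at 5 CPM in 2 libraries, non-robust estimation, a block for the replicate letter, fits on the compared groups or without the 14-session groups, leaving out each library, and, chosen after seeing the data, library totals as the only scaling.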

Additional observations from a re-analysis of the deposited data

Results flagged for a closer look

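FLG stood out because its light effect differed between series, by 1.39 ± 0.22 on the log2 scale from 3 to 42 irradiations (edgeR adjusted p = 0.0132). NEDD9 differed in the opposite direction over the same series, by -1.5 ± 0.31 (adjusted p = 0.0334). VAV3 differed by -1.01 ± 0.19 from 14 to 42 irradiations (edgeR adjusted p = 0.0493). All 3 are list genes, not the receptor, its partners or the 4 main targets. Each call was lost without at least 3 single libraries, and that of VAV3 also with a filter at 5 CPM, with the replicate block, without robust estimation and in a fit on the compared groups alone. Samples far from their group could not be looked for, since groups held 2 libraries.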

How the results depend on the processing

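Of 1813 values for members and called list genes under alternatives, 1645 kept their direction and side of the threshold, 126 lost a call, 4 gained one and 38 changed sign, the latter all among members with a main difference of at most 0.187. The number of members called rose from 0 to 1 (CYP1B1) for the light effect after 42 irradiations without the 14-session libraries, and for the average with no filter or DESeq2. For dark_42 against dark_3 it fell from 2 to 1 with library totals only or DESeq2, and was 0 to 2 without 1 library. For dark_42 against dark_14 it was 0 to 1 without 1 library. Over 15 pairs of groups, the deviations of libraries with the same letter had r of -0.252 to 0.296, with 3 over 0.1. The letters a and b thus showed no pairing shared by all groups. Pairing of dark and irradiated libraries within a series was not tested apart. With the replicate block the calls of VAV3 (change from 14 to 42, adjusted p = 0.0639) and IVL (dark_42 against dark_3, 0.0541) were lost, the ARNT change from 3 to 14 was -0.00858, and no other call or sign changed.

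Signs that changed were these, as ranges without 1 library. For the light effect they were AHR -0.107 to 0.0595 and ARNT -0.0585 to 0.362 after 3, ALDH3A1 -0.502 to 0.133 after 14, AHR -0.112 to 0.171 after 42, and TIPARP -0.0623 to 0.0151 and ALDH3A1 -0.207 to 0.00144 on average. For its change from 3 to 14 they were ARNT -0.183 to 0.24 and CYP1B1 -0.0446 to 0.162, from 3 to 42 AHR -0.0883 to 0.195 and ARNT -0.142 to 0.277, and from 14 to 42 ARNT -0.0269 to 0.14 and ALDH3A1 -0.461 to 0.177. For dark_14 against dark_3 they were AHR -0.177 to 0.0145, ARNT -0.0745 to 0.109, CYP1B1 -0.18 to 0.0381 and ALDH3A1 -0.497 to 0.158. With library totals only, AHR was -0.0342 for light after 42 and -0.0241 for the change from 3 to 42, and ARNT was -0.0263 for that change and -0.0382 from 14 to 42. With no filter ARNT was -0.024 for dark_14 against dark_3. The cause was not tested. Depth limits AHRR and CYP1A1, which no setting could judge. DESeq2 gave no adjusted p for the average of ARNT and ALDH3A1.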
